A study of Mus musculus with 4 samples.

Results

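The small nuclear ribonucleoproteins (snRNPs), the RNA and protein particles that make up the core of the spliceosome, were described here in CD69+DP thymocytes through the genes that encode their proteins. The members are all genes whose symbol begins with Snrp, Snrnp, Sf3a, Sf3b, Prpf, U2af, Rnpc3 or Lsm followed by a digit. The names were chosen with earlier results of these data known, and *Rnpc3* entered as a whole symbol. This choice by name gave 58 of the 24421 genes listed, with no filter on their expression. Of these, 57 had at least 1 FPKM (fragments per kilobase of gene and per unit of sequencing depth, a level that can be compared between genes) in at least 2 samples, and they were compared between the groups among 10776 genes that passed the same filter. The other member, *Snrpn*, was listed at 0 in all 4 samples, which by counting error alone, leaving aside overlapping genes, allows up to 3 reads, or 0.2004 to 0.278 FPKM in a gene 1 kilobase long.

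The study compared 2 samples from control mice (Foxa1fl/flFoxa2fl/fl without CD4Cre) with 2 samples from Foxa1/2cKO mice (the same floxed alleles with CD4Cre). All mice were C57BL/6 and 6 weeks old, and both groups carried the loxP-flanked *Foxa1* and *Foxa2* alleles. Cre is driven by the *Cd4* promoter and deletes from the DP stage onwards in T cells, and because the controls carried no Cre, effects of the transgene and of the deletion cannot be told apart. Sorted CD4+CD8+ thymocytes that had upregulated CD69, a sign of recent TCR signalling, were sequenced. No mouse was shared between samples, and a sort drew on 2 mice of each genotype. Whether a sample is a pool of both or comes from 1 mouse is not clear from the methods, so the SD over n = 2 measures the spread between samples, which may be pools.

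The spliceosome removes introns from pre-mRNA. U1 snRNP recognises the 5′ splice site, and U2AF and U2 snRNP recognise the 3′ splice site and the branch point, after which the U4/U6.U5 tri-snRNP joins and is remodelled into the active enzyme. Most of these particles are built on a ring of Sm proteins, whereas U6 carries a ring of the related LSm proteins, and a rare class of introns is removed by a minor spliceosome that uses U11 and U12 in place of U1 and U2. Developing T cells use alternative splicing widely, for example in the transcript of the phosphatase CD45.

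The reads recovered on the listed genes were 14666375 and 13237365 in the controls, and fewer in Foxa1/2cKO, at 10527303 and 11399976. *Foxa1* and *Foxa2* were listed at 0 in every sample, controls included, so the genotype could not be checked from them. By quantitative RT-PCR the paper detected both in wild-type DP cells and in control single-positive (SP) thymocytes. In Foxa1/2cKO SP thymocytes it found both below detection. The markers of CD69+DP thymocytes were all above 0, and their summed level was 2892 and 2979 FPKM in the controls and 3002 and 3695 FPKM in Foxa1/2cKO. Foxa1/2cKO 2 stood apart from the other samples, at 28.5 on the first principal component of all genes against -10.97 to -7.42 in the others. Its summed level of 6 cycling genes was 199.5 FPKM, whereas the other samples had 453 to 511 FPKM. The same sample was lowest for 5 mature SP markers, which summed to 174 FPKM, against 261 FPKM in Foxa1/2cKO 1 and 228 and 255 FPKM in the controls, and 1 of these markers had an unadjusted p under 0.05 from limma. Markers of other cells summed to 50.3 to 104 FPKM for B cells, 14.8 to 28.9 FPKM for myeloid cells, 6.13 to 6.79 FPKM for thymic epithelium and 0.608 to 2.67 FPKM for erythroid cells, where 4 globin genes were listed at 0. In bulk RNA, fewer cells of a type and less RNA per cell cannot be told apart.

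The snRNP genes differed little between the groups. Of the 57 members tested, 56 differed by less than 0.5 on the log2(FPKM + 1) scale, as did 10326 of all 10776 genes tested. This count therefore does not set the members apart from other genes. The median absolute difference was 0.0863 over the members, against 0.112 over all genes tested. An unadjusted p under 0.05 from limma was found for 7 members (12.3%), with 4.55% of all genes tested as the background. *Rnpc3*, *Prpf4b*, *Sf3b1* and *Snrnp200* had higher levels in Foxa1/2cKO, and *Snrpd3*, *Snrpd1* and *Prpf40b* had lower levels, with 2.39% and 2.15% of all genes tested as the backgrounds in each direction. No member passed after Benjamini-Hochberg adjustment over all genes, where the smallest value for a member was an adjusted p of 0.863 by limma and 0.00928% of the genes tested passed. The number depended on the sample set. It was 16 without Foxa1/2cKO 2 (17.7% of all genes), 20 without Foxa1/2cKO 1 (40.1%), 1 without control 1 (1.09%) and 0 without control 2 (0.573%). The paper's abstract names *Sf3b1*, *Rnpc3*, *Prpf4b*, *Prpf40b* and *Snrpd3* among the splicing genes that Foxa1 and Foxa2 regulate. It called genes with DESeq2 on counts, with p-values re-estimated by fdrtool, at an adjusted p under 0.05. The limma fit on FPKM used here is a different test, so its calls are not a repeat of the paper's. The members were chosen with such results known, so the share of 12.3% is not free of that choice. The members share samples and belong to joint complexes, so they are not independent of each other and the 7 were not tested as a count. The scale used understates the differences of genes with low FPKM, and with 2 samples a group the smallest two-sided p of an exact permutation test is 0.333.

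More members were lower than higher. The fitted difference was below 0 in 36 members (63.2%) and above 0 in 21, whereas 48.7% of all genes tested were below 0. Both Foxa1/2cKO samples lay below both controls in 22 members, with 17.8% of all genes tested as the background, and above both in 11, with a background of 18.9%. The 2 groups overlapped in the remaining 24 members, so they were separate in 33 (57.9%), with 36.7% of all genes tested as the background. The median difference was -0.05 over the members and 0.01 over all genes tested. The 2 controls lay closer together than the 2 Foxa1/2cKO samples, with an SD of the log2 difference across members of 0.0928 and 0.187. The same held over all genes tested, at 0.198 and 0.405.

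**Figure D1:**
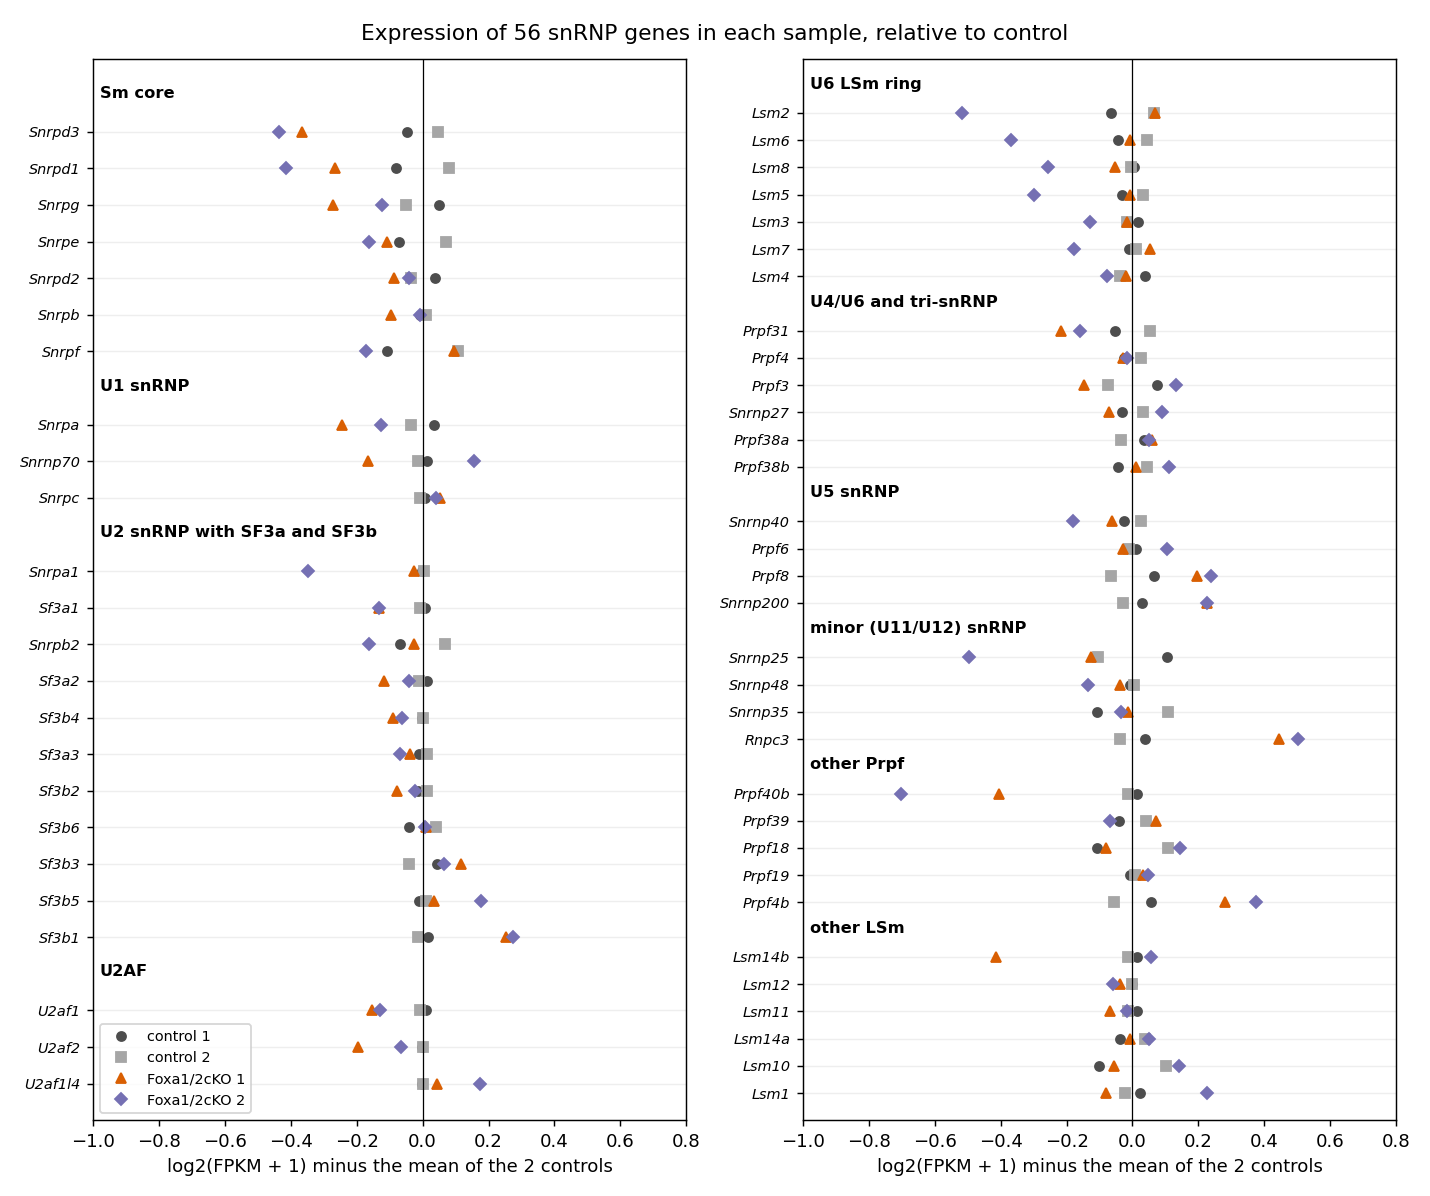
Level of each of 56 snRNP genes in each sample, as log2(FPKM + 1) minus the mean of the 2 controls, grouped by particle and ordered within it by the fitted difference. Circles and squares are the controls, and triangles and diamonds are Foxa1/2cKO 1 and 2. All 7 LSm ring genes have Foxa1/2cKO 2 below both controls, and *Rnpc3*, *Prpf4b* and *Sf3b1* have both Foxa1/2cKO samples to the right of both controls.

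The Sm core showed lower values in Foxa1/2cKO in all 7 expressed genes. Sm proteins assemble as a ring on U1, U2, U4 and U5 snRNA, and a cell needs each of them for every such particle. Both Foxa1/2cKO samples were below both controls in 5 of the 7 genes (17.8% of all genes tested), the median difference was -0.14, and 2 of the 7 were lower with an unadjusted p under 0.05 from limma (2.15% of all genes tested). The summed level was 817 and 853 FPKM in the controls and 752 and 748 FPKM in Foxa1/2cKO. The median difference became -0.11 when Foxa1/2cKO 2 was left out, and 6 of the 7 were still below 0.

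*Snrpd3*, which encodes the ring protein SmD3 (mm10 chromosome 10, 75517551 to 75537381), was at 112 and 119.5 FPKM in the controls and 89.6 and 85.4 FPKM in Foxa1/2cKO. There was no overlap, and the gap between the groups was larger than the spread within either. The mean was 116 ± 5.27 FPKM (SD, n = 2) for control and 87.5 ± 2.96 FPKM (SD, n = 2) for Foxa1/2cKO. The fitted difference was -0.40 (standard error 0.09, unadjusted p = 0.00672 and adjusted p = 0.863 from limma). It was -0.37 without Foxa1/2cKO 2 and -0.43 without Foxa1/2cKO 1. Its share of the summed Sm FPKM was 13.7% and 14.0% in the controls, against 11.9% and 11.4% in Foxa1/2cKO.

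*Snrpd1*, which encodes SmD1, was at 71.8 and 80.5 FPKM in the controls and 63.1 and 56.8 FPKM in Foxa1/2cKO. Here too the groups did not overlap, although the controls differed from each other by more than for *Snrpd3*. The fitted difference was -0.34 (standard error 0.11, unadjusted p = 0.0260 and adjusted p = 0.863 from limma). Of the 50-base stretches of its transcripts, 13.8% also occur in the annotated gene *Gm14277*.

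The other ring genes differed by less. *Snrpg* was at 72.8 and 67.8 FPKM in the controls and 58.0 and 64.5 FPKM in Foxa1/2cKO. *Snrpe*, at 189.7 and 209 FPKM in the controls, was at 185 and 178 FPKM in Foxa1/2cKO. *Snrpd2* was at 114 and 109 FPKM against 105 and 108 FPKM. These 3 genes had Foxa1/2cKO values below the controls, with unadjusted limma p-values of 0.103, 0.210 and 0.483. *Snrpb*, the Sm gene with the highest level, had overlapping groups at 211 and 214 FPKM in the controls and 199.04 and 211 FPKM in Foxa1/2cKO. *Snrpf* also overlapped, at 45.4 and 52.9 FPKM in the controls and 52.4 and 43.4 FPKM in Foxa1/2cKO. Of its 50-base stretches, 89.5% are shared with other annotated genes, most of all with the overlapping gene *Ccdc38*. The neuronal *Snrpn*, a close relative of *Snrpb*, took 0% of the pair in every sample, but 34.1% of its exon bases are overlapped by another gene, where counting in union mode may leave reads out. The ratio of *Snrpd3* to *Snrpb* FPKM, a pair chosen after its values were seen, was 0.530 and 0.559 in the controls, against 0.450 and 0.404 in Foxa1/2cKO.

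The LSm ring of U6 was also below 0 in all 7 genes, but this rested on 1 sample. The ring binds the 3′ end of U6 snRNA and helps it pair with U4. Foxa1/2cKO 2 lay below both controls in all 7 genes, whereas Foxa1/2cKO 1 did so in only 1, *Lsm8*. Of all 10776 genes tested, 4266 had Foxa1/2cKO 2 below both controls and 4386 had Foxa1/2cKO 1 there. The summed level was 332 and 330 FPKM in the controls, 329 FPKM in Foxa1/2cKO 1 and 288 FPKM in Foxa1/2cKO 2. The median difference was -0.15 with all samples, -0.01 without Foxa1/2cKO 2 and -0.26 without Foxa1/2cKO 1. None of the 7 genes had an unadjusted p under 0.05 from limma. The same sample had the low levels of cycling and mature SP genes given above, and the part of either in the LSm values was not tested.

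*Lsm2* had the largest fitted difference of the ring, at 32.0 and 35.1 FPKM in the controls and 35.2 and 23.1 FPKM in Foxa1/2cKO. Foxa1/2cKO 1 was level with the higher control, and only Foxa1/2cKO 2 was low. The fitted difference was -0.23 (standard error 0.21, unadjusted p = 0.338 by limma), but it was 0.07 with Foxa1/2cKO 2 left out. *Lsm6* had the same shape at a lower level, with 11.1 and 11.8 FPKM in the controls and 11.4 and 8.66 FPKM in Foxa1/2cKO. *Lsm5* was at 30.5 and 31.9 FPKM in the controls and 31.1 and 25.2 FPKM in Foxa1/2cKO. *Lsm8*, which sets the nuclear ring apart from the cytoplasmic one, was at 50.5 and 50.1 FPKM in the controls and 48.4 and 41.9 FPKM in Foxa1/2cKO, and it alone had no overlap. *Lsm3*, *Lsm4* and *Lsm7* had fitted differences between -0.07 and -0.05.

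Among the genes of U1 snRNP, 1 of 3 was higher and 2 were lower in Foxa1/2cKO, and none had an unadjusted p under 0.05 from limma. *Snrpa*, which encodes the U1 protein that binds a loop of U1 snRNA, was at 62.9 and 59.9 FPKM in the controls and 51.6 and 56.2 FPKM in Foxa1/2cKO. The Foxa1/2cKO samples were both below the controls, with a fitted difference of -0.18 (standard error 0.09, unadjusted p = 0.0996 from limma). *Snrnp70*, the U1-70K gene and the member with the highest mean level, had its Foxa1/2cKO samples on either side of the controls. It was at 239.8 and 235 FPKM in the controls, 212 FPKM in Foxa1/2cKO 1 and 264 FPKM in Foxa1/2cKO 2. *Snrpc*, for the U1 protein that contacts the 5′ splice site helix, was at 52.8 and 52.2 FPKM in the controls and 54.5 and 54.1 FPKM in Foxa1/2cKO, a difference of 0.05.

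U2 snRNP with its SF3a and SF3b subcomplexes held 11 members, and in Foxa1/2cKO 4 were higher and 7 lower. SF3a and SF3b fasten U2 to the intron, and SF3B1, the largest SF3b subunit, holds the helix that U2 forms with the branch point. Only *Sf3b1* of the 11 had an unadjusted p under 0.05 from limma. In 9 of the 11 genes both Foxa1/2cKO samples lay on the same side of the controls, 3 above and 6 below, with 18.9% and 17.8% of all genes tested as the backgrounds, but most of these gaps were small, and the median difference was -0.05.

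*Sf3b1* (mm10 chromosome 1, 54985169 to 55027481) was at 164 and 161 FPKM in the controls and 194 and 197 FPKM in Foxa1/2cKO. Both groups were tight, and the higher control was well below the lower Foxa1/2cKO sample. The mean was 163 ± 2.39 FPKM (SD, n = 2) for control and 195 ± 1.86 FPKM (SD, n = 2) for Foxa1/2cKO. The fitted difference of 0.26 is 1.20-fold on the FPKM + 1 scale (standard error 0.08, unadjusted p = 0.0242 and adjusted p = 0.863 from limma). It was 0.25 without Foxa1/2cKO 2 and 0.27 without Foxa1/2cKO 1, so neither sample alone carried it. None of its 50-base stretches occurs in another annotated gene.

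The partners of *Sf3b1* did not share this difference. *Sf3a1* was at 50.4 and 49.8 FPKM in the controls and 45.6 FPKM in both Foxa1/2cKO samples, a fitted difference of -0.13. *Sf3a2*, *Sf3a3*, *Sf3b2* and *Sf3b4* had Foxa1/2cKO values below both controls with fitted differences between -0.08 and -0.05. *Sf3b3* and *Sf3b5* had values above both controls with fitted differences of 0.09 and 0.11, and *Sf3b6* overlapped at 0.01. *Snrpa1*, for a protein that binds U2 snRNA with the product of *Snrpb2*, was at 49.6 and 49.8 FPKM in the controls, 48.8 FPKM in Foxa1/2cKO 1 and 38.8 FPKM in Foxa1/2cKO 2, so its difference of -0.19 came mostly from the last sample. *Snrpb2* itself overlapped, with a difference of -0.09. The ratio of *Sf3b1* to *Sf3a1* FPKM, again chosen after the values were seen, was 3.26 and 3.23 in the controls, against 4.26 and 4.31 in Foxa1/2cKO.

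The U2AF genes encode the factor that marks the 3′ splice site before U2 arrives. *U2af1*, for the small subunit that contacts the terminal AG of the intron, was at 80.9 and 79.9 FPKM in the controls and 72.2 and 73.5 FPKM in Foxa1/2cKO. Both Foxa1/2cKO samples were below both controls, with a fitted difference of -0.14 (standard error 0.08, unadjusted p = 0.136 from limma). *U2af2*, for the large subunit that binds the polypyrimidine tract, was at 162 and 163 FPKM in the controls and 142 and 155 FPKM in Foxa1/2cKO, a difference of -0.13. *U2af1l4*, a relative of the small subunit, was at 39.5 and 39.6 FPKM in the controls and 40.7 and 44.8 FPKM in Foxa1/2cKO. Its value is uncertain, because 97.2% of its 50-base stretches also occur in other annotated genes, most of all in the overlapping gene *Gm49396*. For *U2af1* the share was 59.4%, most of all in *Gm10232*.

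Of the U5 snRNP genes, 3 were higher and 1 was lower in Foxa1/2cKO, with a median difference of 0.13. Without Foxa1/2cKO 2 the genes were 2 higher and 2 lower, with *Prpf6* at -0.03 and a median of 0.08. U5 holds the exons in place, and its large proteins form the scaffold and the motor of the spliceosome. *Snrnp200*, which encodes the helicase that unwinds U4 from U6 (mm10 chromosome 2, 127208386 to 127240451), was at 65.8 and 63.3 FPKM in the controls and 75.6 and 75.7 FPKM in Foxa1/2cKO. The Foxa1/2cKO samples were almost equal and above both controls, with a fitted difference of 0.23 (standard error 0.08, unadjusted p = 0.0403 and adjusted p = 0.863 from limma). *Prpf8*, for the scaffold that cradles the catalytic RNA (chromosome 11, 75486816 to 75509449), was at 112 and 103 FPKM in the controls and 123 and 127 FPKM in Foxa1/2cKO. There was no overlap, and the fitted difference was 0.22 (standard error 0.09, unadjusted p = 0.0639 from limma). *Prpf6*, which bridges U5 to U4/U6, overlapped between the groups with a difference of 0.04. *Snrnp40*, a WD-repeat protein of U5, was at 56.2 and 58.3 FPKM in the controls and 54.9 and 50.4 FPKM in Foxa1/2cKO, a difference of -0.12.

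Of the U4/U6 and tri-snRNP genes, 3 were higher and 3 lower, with a median difference of 0.00. The 2 Foxa1/2cKO samples went opposite ways here, with a median of -0.05 and 4 genes lower without Foxa1/2cKO 2 and a median of 0.07 and 2 genes lower without Foxa1/2cKO 1. *Prpf31*, which locks U4/U6 into the tri-snRNP, was at 25.7 and 27.8 FPKM in the controls and 22.9 and 23.9 FPKM in Foxa1/2cKO. It was below both controls in both samples, with a fitted difference of -0.19 (standard error 0.09, unadjusted p = 0.0980 from limma). *Prpf3* and *Prpf4*, which bind U4/U6 together, differed by -0.01 and -0.02, and *Snrnp27* by 0.01. *Prpf38a* and *Prpf38b*, for proteins that take part in activation, differed by 0.05 and 0.06.

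The minor spliceosome gave the largest fitted difference above 0 among the members. *Rnpc3*, for the protein that connects U11 with U12 (mm10 chromosome 3, 113605067 to 113630149), was at 10.9 and 10.3 FPKM in the controls and 14.8 and 15.4 FPKM in Foxa1/2cKO. The mean was 10.6 ± 0.429 FPKM (SD, n = 2) for control and 15.1 ± 0.458 FPKM (SD, n = 2) for Foxa1/2cKO, so the groups were far apart relative to their spread. The fitted difference was 0.47 (standard error 0.09, unadjusted p = 0.00464 and adjusted p = 0.863 from limma), or 1.39-fold on the FPKM + 1 scale. It was 0.44 without Foxa1/2cKO 2 and 0.50 without Foxa1/2cKO 1. Of its 50-base stretches, 23.3% also lie in other annotated genes, most of all in *Amy1*, and 17.0% of its exon bases are overlapped by another gene.

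The 3 other minor snRNP genes among the members did not follow *Rnpc3*. *Snrnp25* was at 26.2 and 22.5 FPKM in the controls and 22.2 and 16.9 FPKM in Foxa1/2cKO, with a fitted difference of -0.31 (unadjusted p = 0.116 from limma). Most of this came from Foxa1/2cKO 2, since the difference was -0.13 without it. *Snrnp48* was at 25.9 and 26.1 FPKM against 25.3 and 23.6 FPKM, and *Snrnp35* overlapped with a difference of -0.03. The ratio of *Rnpc3* to *Snrnp25* FPKM, chosen after the values were seen, was 0.416 and 0.457 in the controls, against 0.667 and 0.912 in Foxa1/2cKO.

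Of the 6 other Prpf genes, 5 were higher and 1, *Prpf40b*, was lower in Foxa1/2cKO. Leaving out either Foxa1/2cKO sample gave 2 lower of the 6, as did scaling the FPKM by their upper quartile. Scaling by all recovered reads, or removing the length trend of all genes, gave 3 lower. *Prpf40b* (mm10 chromosome 15, 99295087 to 99317018) encodes a U1-associated protein that bridges the ends of the intron. It was at 8.06 and 7.88 FPKM in the controls and 5.78 and 4.51 FPKM in Foxa1/2cKO, which correspond to 381, 338, 197 and 158 reads. The controls lay together and both Foxa1/2cKO samples were lower, with means of 7.97 ± 0.125 FPKM (SD, n = 2) and 5.14 ± 0.896 FPKM (SD, n = 2). The fitted difference of -0.55 was the largest of any member (standard error 0.14, unadjusted p = 0.0128 and adjusted p = 0.863 from limma). It was -0.40 without Foxa1/2cKO 2 and -0.70 without Foxa1/2cKO 1.

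*Prpf4b*, for a kinase that phosphorylates tri-snRNP proteins (chromosome 13, 34875302 to 34906064), was at 59.6 and 55.0 FPKM in the controls and 69.8 and 74.5 FPKM in Foxa1/2cKO. There was no overlap, and the fitted difference was 0.33 (standard error 0.09, unadjusted p = 0.0177 and adjusted p = 0.863 from limma), or 1.25-fold. *Prpf19*, a ubiquitin ligase that helps to activate the spliceosome, was at 24.1 and 24.4 FPKM against 24.8 and 25.1 FPKM. *Prpf18*, which acts in the second step of splicing, and *Prpf39*, a U1-associated protein, had overlapping groups with differences of 0.03 and 0.00.

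**Figure D2:**
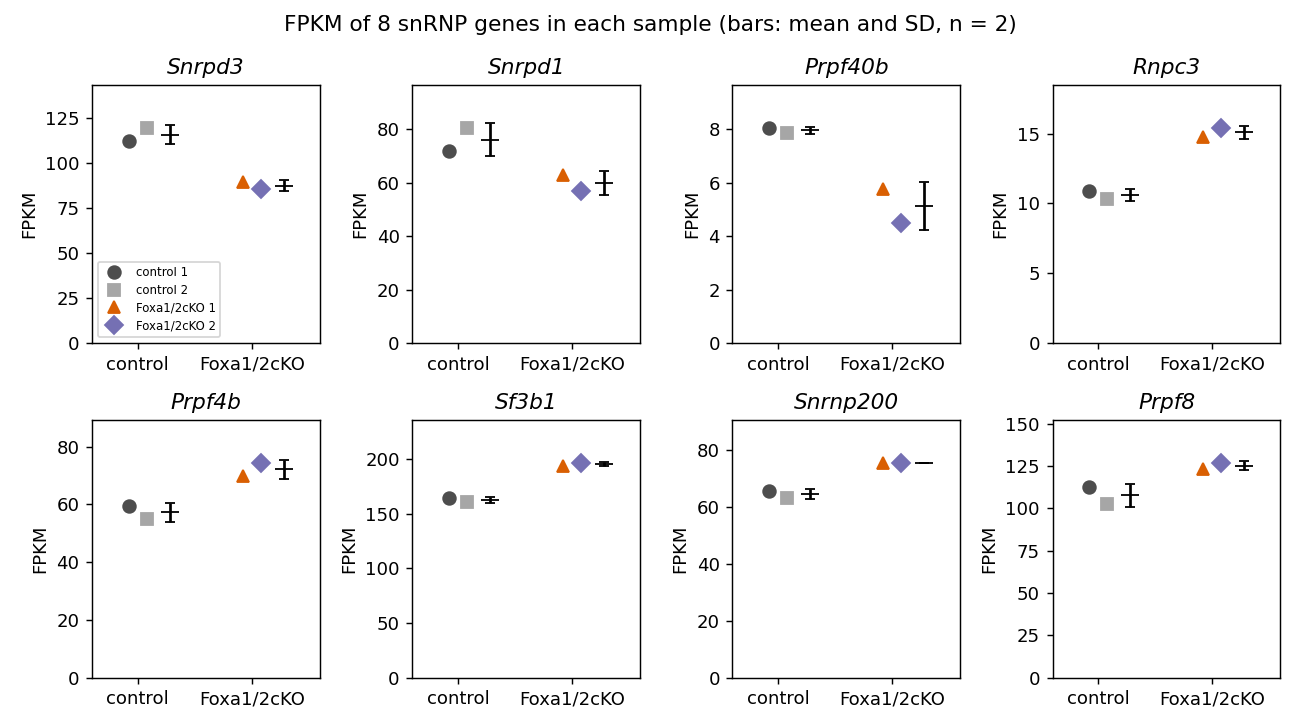
FPKM of the 7 members with an unadjusted p under 0.05 and of *Prpf8* in each sample, with the mean and SD (n = 2) of each group drawn beside the points and the axis starting at 0. In all 8 genes both Foxa1/2cKO samples lie on the same side of both controls, lower for *Snrpd3*, *Snrpd1* and *Prpf40b* and higher for the other 5.

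Close relatives among the members were set against each other by their share of the FPKM of the pair, which does not depend on the scaling between samples. *U2af1l4* made up 32.8% and 33.1% of its pair with *U2af1* in the controls, against 36.1% and 37.9% in Foxa1/2cKO, with no overlap and with the limit on its reads given above. The mean share was 32.95% ± 0.212 (SD, n = 2) for control and 36.97% ± 1.26 (SD, n = 2) for Foxa1/2cKO. *Prpf38b* took between 73.9% and 76.1% of its pair with *Prpf38a*, and *Snrpb2* between 47.1% and 52.7% of its pair with *Snrpa*. In neither of these did the groups separate. *Lsm14b* took 38.4% and 36.8% of its pair with *Lsm14a* in the controls, whereas Foxa1/2cKO 1 had 31.1% and Foxa1/2cKO 2 had 37.6%.

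**Figure D3:**
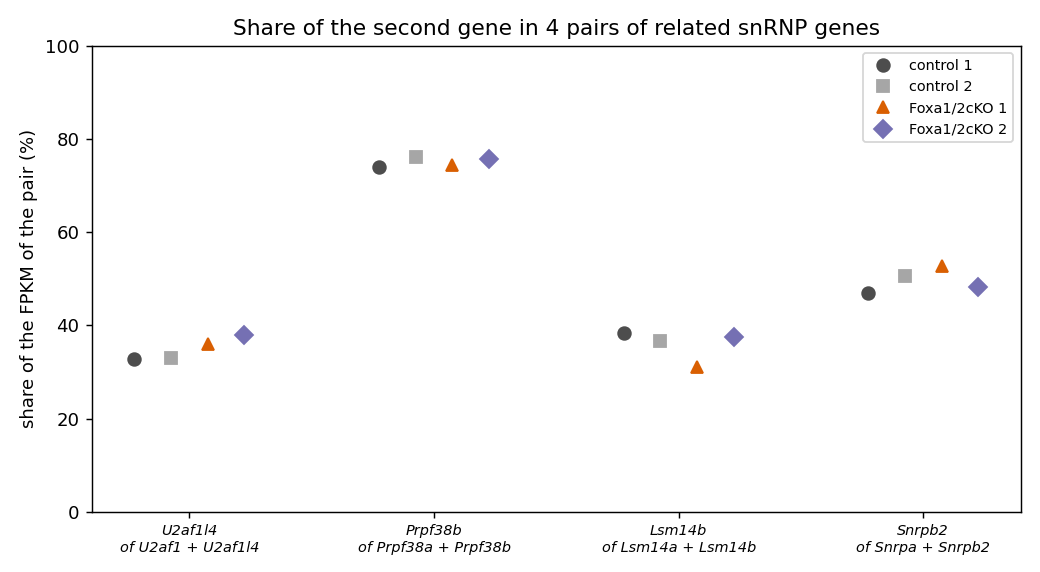
Share of the second gene in the summed FPKM of 4 pairs of related members, in percent, for each of the 4 samples. The 2 Foxa1/2cKO samples lie above both controls for *U2af1l4* (36.1% and 37.9%), and the groups overlap or split in the other 3 pairs.

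The symbols also took in 6 LSm genes that are not part of the spliceosome, and 3 were higher and 3 lower. Without Foxa1/2cKO 2 all 6 were lower, with a median difference of -0.06 in place of -0.01. *Lsm14b*, for a protein of cytoplasmic mRNA granules, was at 48.7 and 47.8 FPKM in the controls, 35.97 FPKM in Foxa1/2cKO 1 and 50.2 FPKM in Foxa1/2cKO 2. Here Foxa1/2cKO 1 was the sample that differed, and the fitted difference of -0.18 (standard error 0.17, unadjusted p = 0.349 from limma) was 0.06 without it. *Lsm1*, which replaces *Lsm8* in the cytoplasmic ring for mRNA decay, was at 12.3 and 11.9 FPKM in the controls and 11.3 and 14.3 FPKM in Foxa1/2cKO. *Lsm10* and *Lsm11*, of the U7 snRNP that processes histone mRNA, differed by 0.04 and -0.04. *Lsm12* and *Lsm14a* differed by -0.05 and 0.02.

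In all 7 members with an unadjusted p under 0.05 from limma, both Foxa1/2cKO samples lay on the same side of both controls. Leaving out Foxa1/2cKO 2, the sample that stood apart, could therefore not change their sign, only the size of the difference. Beside the values already given, the difference was then -0.27 for *Snrpd1*, 0.28 for *Prpf4b*, 0.22 for *Snrnp200* and 0.20 for *Prpf8*. The signs of the particles held when the FPKM were scaled by their upper quartile or by all recovered reads, with 1 exception. The Sm core and LSm ring stayed below 0 in all 7 of their genes under both, and 3 of the 4 U5 genes stayed above 0. The exception was U4/U6 and tri-snRNP, whose median of 0.00 became -0.02 and -0.03. The scaling by all reads was chosen after seeing the data.

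Gene length ran alongside these differences. Across the 57 members, Spearman's rho between the length behind the FPKM and the fitted difference was 0.345, and across all genes tested it was 0.147, in each case over genes that share the same 4 libraries. The members of the Sm core and LSm ring are mostly short, and *Sf3b1*, *Snrnp200* and *Prpf8* have lengths of 6191, 6740 and 7481 bases. Taken singly against the mean of the controls, Foxa1/2cKO 1 gave a rho of 0.177 and Foxa1/2cKO 2 gave 0.385, while control 2 minus control 1 gave -0.17. After the length trend of all genes was removed from each sample, the members' rho was 0.190 and their median difference -0.03. The corrected difference was -0.40 for *Snrpd3*, -0.31 for *Snrpd1*, -0.56 for *Prpf40b*, 0.46 for *Rnpc3* and 0.30 for *Prpf4b*. It was 0.22 for *Sf3b1* (unadjusted p = 0.0348 from limma), 0.17 for *Snrnp200* (unadjusted p = 0.0725 from limma) and 0.16 for *Prpf8* (unadjusted p = 0.117 from limma), so that *Snrnp200* no longer had a p under 0.05 and 6 members did, with 4.5% of all genes tested as the background.

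**Figure D4:**
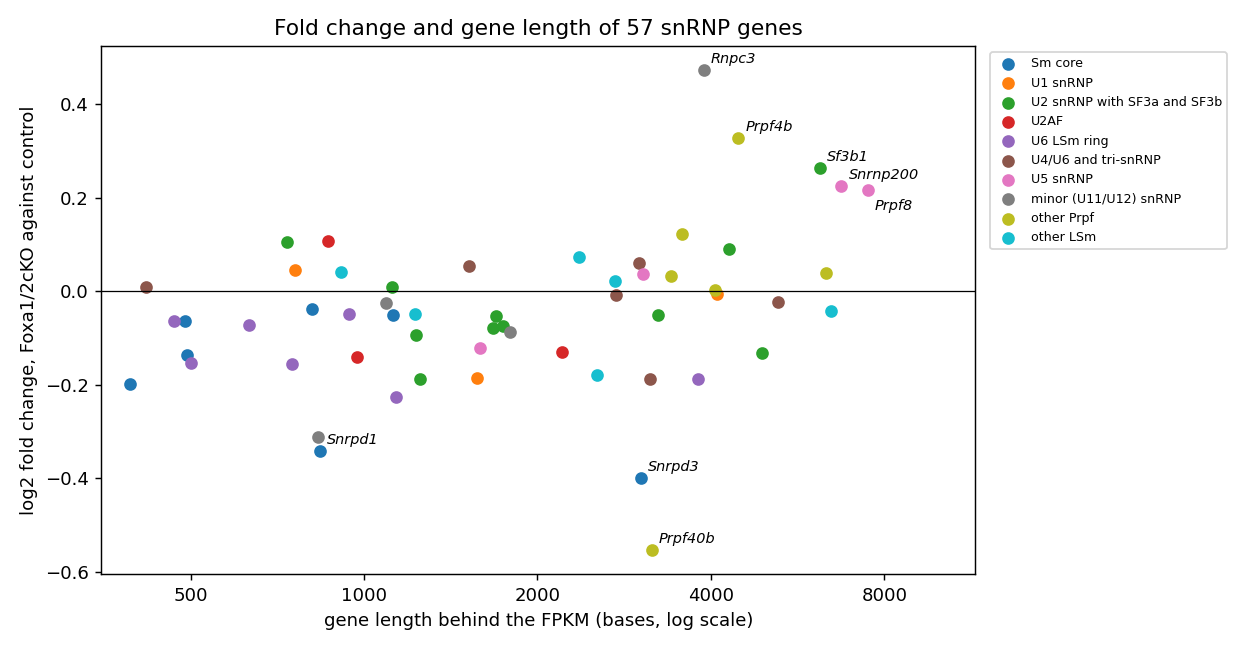
Fitted log2 difference between Foxa1/2cKO and control on log2(FPKM + 1) against gene length in bases (log axis) for 57 members, with 1 point per gene coloured by particle and 8 genes labelled. The points trend upwards (Spearman's rho of 0.345), with *Sf3b1*, *Snrnp200* and *Prpf8* among the longest genes, while *Snrpd3* and *Prpf40b* are low for their length.

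Genes that work with the snRNPs were taken from 2 further lists. Of 51 other spliceosome genes tested, such as helicases and proteins of the *Prpf19* complex, 30 were higher and 21 lower in Foxa1/2cKO, with a median difference of 0.04. This direction rested on Foxa1/2cKO 2, since without it 28 of the 51 were lower and the median was -0.01, and scaling by all reads gave a median of 0.00. None had an unadjusted p under 0.05 from limma, and the smallest was 0.0536 for *Ppih*, a cyclophilin bound to U4/U6, with 8.49 and 8.32 FPKM in the controls and 7.02 and 6.76 FPKM in Foxa1/2cKO. Of 21 genes for snRNP assembly and import, including the SMN complex that loads Sm rings, 13 were higher and 8 lower, and none had an unadjusted p under 0.05. Their median difference was 0.01, and it became -0.01 with upper-quartile scaling and -0.02 with scaling by all reads.

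Because Foxa1 and Foxa2 are forkhead factors, the 250 bases before the start sites of the members were read for forkhead letters. RefSeq (GRCm38.p6) gave 58 such promoters for 47 members, and 11 members had none in the table. The letters TGTTTAC, on either strand, occurred in 2 of the 58 (3.45%) and in 3.17% of all 32851 promoters, and TATTTAC in 0 of the 58 and in 2.73% of all. The 2 matches were in *Lsm6*, 219 bases before its start, and in *Snrpf*, 73 bases before its RefSeq start. Neither gene had an unadjusted p under 0.05 from limma. Unlike that of *Lsm6*, the *Snrpf* window does not lead into the first bases of an annotated transcript. The annotated *Snrpf* gene begins inside the window, at 93589706, which is nearer to the match. They are shown as 30 bases around the match, in the gene's direction, 5′ to 3′, with the forkhead letters (GTAAACA on this strand) in capitals. *Lsm6* lies at chr8:78821353-78821382 and *Snrpf* at chr10:93589713-93589742, both on the minus strand.
Lsm6: ggttctttactGTAAACAcacacacacaag
Snrpf: ccctccaatcaGTAAACAcgtctttggtgg

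The promoters of *Snrpd3* and *Prpf40b*, which had lower levels, and of *Sf3b1* and *Rnpc3*, which had higher levels, are shown in full because the results turn on these genes. None holds either forkhead heptamer, which says only that these letters are not in this window. The capitals mark CCAAT and CCGGAA on either strand, the letters of 2 common promoter motifs, which were chosen after the sequences were seen. CCGGAA occurred in 22 of the 58 promoters (37.9%) and in 12.03% of all promoters, and CCAAT also in 22 of the 58 and in 33.8% of all. The windows are chr10:75517792-75518041 (plus strand) for *Snrpd3*, chr15:99294991-99295240 (plus strand) for *Prpf40b*, chr1:55027479-55027728 (minus strand) for *Sf3b1* and chr3:113630150-113630399 (minus strand) for *Rnpc3*, each 5′ to 3′ in the gene's direction.
Snrpd3: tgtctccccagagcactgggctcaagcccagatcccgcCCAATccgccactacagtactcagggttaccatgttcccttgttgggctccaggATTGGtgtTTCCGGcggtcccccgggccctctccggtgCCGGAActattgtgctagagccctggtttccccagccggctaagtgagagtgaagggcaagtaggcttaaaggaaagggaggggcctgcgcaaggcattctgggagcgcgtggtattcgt
Prpf40b: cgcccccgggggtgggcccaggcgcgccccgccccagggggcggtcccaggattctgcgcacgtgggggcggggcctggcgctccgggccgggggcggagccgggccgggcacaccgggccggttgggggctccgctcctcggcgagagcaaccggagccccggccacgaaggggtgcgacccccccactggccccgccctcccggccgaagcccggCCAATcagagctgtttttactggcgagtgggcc
Sf3b1: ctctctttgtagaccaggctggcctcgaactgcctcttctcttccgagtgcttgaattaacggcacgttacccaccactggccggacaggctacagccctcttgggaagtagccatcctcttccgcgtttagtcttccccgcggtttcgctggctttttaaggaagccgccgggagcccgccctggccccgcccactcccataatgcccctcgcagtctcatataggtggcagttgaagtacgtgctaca
Rnpc3: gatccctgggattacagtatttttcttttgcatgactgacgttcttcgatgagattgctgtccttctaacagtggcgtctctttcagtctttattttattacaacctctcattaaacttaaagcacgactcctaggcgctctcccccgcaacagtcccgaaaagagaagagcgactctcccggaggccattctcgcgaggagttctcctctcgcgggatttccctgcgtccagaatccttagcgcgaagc
The *Snrpd3* promoter holds both kinds of letters, *Prpf40b* holds CCAAT only, and *Sf3b1* and *Rnpc3* hold neither. This split does not extend to other members with higher levels. The promoters of *Prpf4b* and *Snrnp200* hold CCGGAA, and that of *Prpf8* holds CCAAT. All 4 windows shown lead into the first bases of an annotated transcript. The *Snrpd3* window lies inside the gene bounds given above, which begin at 75517551. The *Prpf40b* window runs past the first base of its gene at 99295087. No full window before these outermost starts was read. *Prpf40b* also has a second promoter, which is not shown.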

How the data were processed

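RNA from sorted CD69+DP thymocytes was sequenced for 4 samples. Per the paper's methods, reads were aligned to mm10 with RefSeq genes in BaseSpace and counted with HTSeq in union mode, and the submitters' processing notes name TopHat, Picard and DESeq2. Whether HTSeq used strand is not given in the sources used here. The authors deposited FPKM per gene, made in a step that is not stated. Their steps gave whole reads for 100% of 16069 genes above 0 (tolerance 0.02), and for 2.75% of them the reads were multiplied to reach an annotated length.

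Differences were fitted with limma 3.58.1 (R 4.3.3; trend, empirical Bayes) on log2(FPKM + 1) over genes with at least 1 FPKM in at least 2 samples, with Benjamini-Hochberg adjustment. Python 3.11.15 was used for tables and figures. limma was tested on simulated data. Full statistics are given for members with an unadjusted p under 0.05, members the paper names, and the largest difference of each particle. The members and lists were chosen with earlier results of these data known. The alternatives were a pseudocount of 0.1, other FPKM filters, 2 scalings, a length correction, a replicate block, limma-voom on recovered reads, and leaving out each sample. P-values set each difference against the spread between these samples, moderated by the spread of the other genes. Values of 1 member, counted in the totals, are not reported here. Exon usage was not analysed here. Protein sequences were not used here.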

Additional observations from a re-analysis of the deposited data

How the results depend on the processing

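The 1 gene called at an adjusted p under 0.05 over all genes is not a member. No gene was called by limma with a minimum of 5 FPKM, no filter, a pseudocount of 0.1, limma-voom on recovered reads, upper-quartile scaling or scaling to all recovered reads (0 in each, with 394 to 802 genes at an unadjusted p under 0.05), and leaving out 1 sample gave 0 to 2695. The members with an unadjusted p under 0.05 numbered 7. They were 3 (*Prpf40b*, *Rnpc3* and *Snrpd3*) with a replicate block, alone or with the length correction, but the replicate numbers share only a number (correlation of same-numbered deviations -0.06), and the block left 3.51% of all genes at that level. Leaving out 1 sample gave 0 to 20 members: 20 without Foxa1/2cKO 1 (background 40.1%), 16 without Foxa1/2cKO 2 (17.7%), 1 without control 1 (1.09%) and 0 without control 2 (0.573%). A fit without 1 sample assumes that the lone sample of its group varies like the other group. The other alternatives gave 6 to 9 members. The members' median difference of -0.05 was -0.0255 with the length correction, with and without the block, -0.0822 with scaling to all recovered reads, -0.0683 with upper-quartile scaling, and -0.0601 to -0.0374 when 1 sample was left out. Over 13 named genes and 169 comparisons with an alternative, 134 kept their direction and side of the threshold, 10 came under 0.05, 23 lost it and 2 reversed: *Lsm14b* (0.0551 without Foxa1/2cKO 1, and -0.414 to 0.0551 when any 1 sample was left out) and *Lsm2* (0.0670 without Foxa1/2cKO 2, and -0.518 to 0.0670). With 2 samples per group the fit had 2 residual and 2.69 prior degrees of freedom, and *Prpf40b*, the called member with the fewest reads, rested on 158 to 381 reads per sample.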
